A study of Musca domestica with 8 samples.

Results

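The contigs described here are those of the 791spin housefly assembly whose deposited annotation names cuticle, chitin, a peritrophin or resilin and gives an insect as the matched species. There were 15 such contigs among 35834, namely 4 cuticle protein contigs, 6 contigs of chitin enzymes and 5 peritrophin contigs. No contig was annotated as resilin or as an insect chitin synthase. The 8 samples, No.1 to No.8, were all whole adult houseflies (*M. domestica*) of the spinosad resistant strain 791spin, which had been selected with spinosad from the multi-resistant strain 791a. Labels give each as about 60 pooled males and females aged 5 to 7 days that had been fed sugar. No sample label names a second condition, so the samples were compared with each other and no groups were tested. The design text of the series, however, speaks of a comparison with a susceptible strain. Every mean, SD and span over the 8 samples here takes the labels as given and cannot tell whether they hide such a difference. No label says whether the samples come from separate cultures.

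Insect cuticle is built of chitin fibres embedded in cuticle proteins, and chitin is made by chitin synthase, modified by chitin deacetylases and degraded by chitinases. In the midgut, chitin also forms the peritrophic matrix, a sleeve around the food that is held together by chitin-binding proteins called peritrophins. In flies most cuticle is laid down before and shortly after adult emergence, whereas a peritrophic matrix can be made throughout adult life.

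The samples held 10266664 to 16115208 counts each (median 10784915). Values are given as CPM, the count of a contig per 1000000 counts of its sample, in which 3 counts correspond to 0.186 CPM in the deepest and 0.292 CPM in the shallowest sample. Intervals and these limits cover counting error only. The labels describe a cDNA library that was normalized, a step that evens out abundant and rare transcripts. The authors' pyrosequencing run of such a library gave fewer reads than any sample has counts, so the counts are not the reads of that run. Whether the counted libraries were also normalized is not said, so the levels of different contigs need not rank their abundance. Ranks among all contigs are given per length, as RPKM (CPM divided by the contig length in kilobases). Sums, shares and ratios of different contigs are in CPM or counts and are not corrected for length. Contigs with trypsin, opsin, flightin, troponin or myosin in their annotation, taken as signs of gut, eye and flight muscle, were counted in all 8 samples. Contigs annotated as yolk protein or vitellogenin lay between 7.76 and 3935 CPM.

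Counts were found for 14 of the 15 members, and the 10 that averaged at least 5 counts per sample entered the tests. The members that did not are the adult cuticle protein 1, endocuticle protein, chitin deacetylase-like 5 and peritrophin-1 contigs and 1 of the 4 chitinase contigs. Together the 15 contigs took 0.087% of all counts. Peritrophins had the highest sum with 699 ± 435 CPM (SD, n = 8), chitin enzymes had 206 ± 91.8 CPM and cuticle proteins 6.57 ± 2.34 CPM. Peritrophins took 54.4% of the counts of all members in No.2, the lowest share, and 90.7% in No.5, the highest. Annotations that carry no protein name limit these sums. A bare Drosophila gene number was the annotation of 13404 contigs, and 5280 contigs had no annotation, so contigs of the same families may lie among them.

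Peritrophin-15 is a small chitin-binding protein first described in the peritrophic matrix of blowfly larvae, and 4 contigs of 289 to 373 bp were matched to the peritrophin-15 precursor of *Chrysomya bezziana*. They carried nearly all peritrophin counts. Their sum was 446, 247, 448, 579, 1010, 1455, 312 and 1097 CPM from No.1 to No.8. The samples No.5, No.6 and No.8 thus stood above the others, and the highest sample had 5.88 times the value of the lowest. Contigs that share this annotation cannot be told apart here as pieces of 1 transcript, alleles or related genes.

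Most of that sum lay on M_dom_c3341 (373 bp), with 201, 186, 293, 496, 739, 1161, 234 and 991 CPM from No.1 to No.8. Its mean was 538 ± 383 CPM (SD, n = 8). No.6 exceeded No.2 by a ratio of 6.25, with a 95% exact interval from 5.99 to 6.52 for counting error. Per length it had 1441 ± 1027 RPKM and ranked 135 among the 35834 contigs, the highest rank of any member.

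The other peritrophin-15 contigs followed different orders of the samples. M_dom_c18552 (297 bp) had 104, 19.0, 101, 48.2, 224, 253, 35.2 and 65.3 CPM from No.1 to No.8, with a mean of 106 ± 87.2 CPM (SD, n = 8). It was high in No.5 and No.6 like M_dom_c3341 but did not share its high value in No.8. M_dom_c19719 (308 bp) had 112, 33.8, 26.4, 23.5, 23.0, 21.0, 25.9 and 27.1 CPM from No.1 to No.8. It was highest in No.1, and its mean of 36.6 ± 30.8 CPM was 25.8 ± 4.13 CPM without that sample. M_dom_c18994 (289 bp) had the smallest ratio of highest to lowest sample of the 4 (3.26), with 28.5, 8.77, 27.1, 11.3, 23.7, 19.2, 17.4 and 13.9 CPM from No.1 to No.8.

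**Figure D1:**
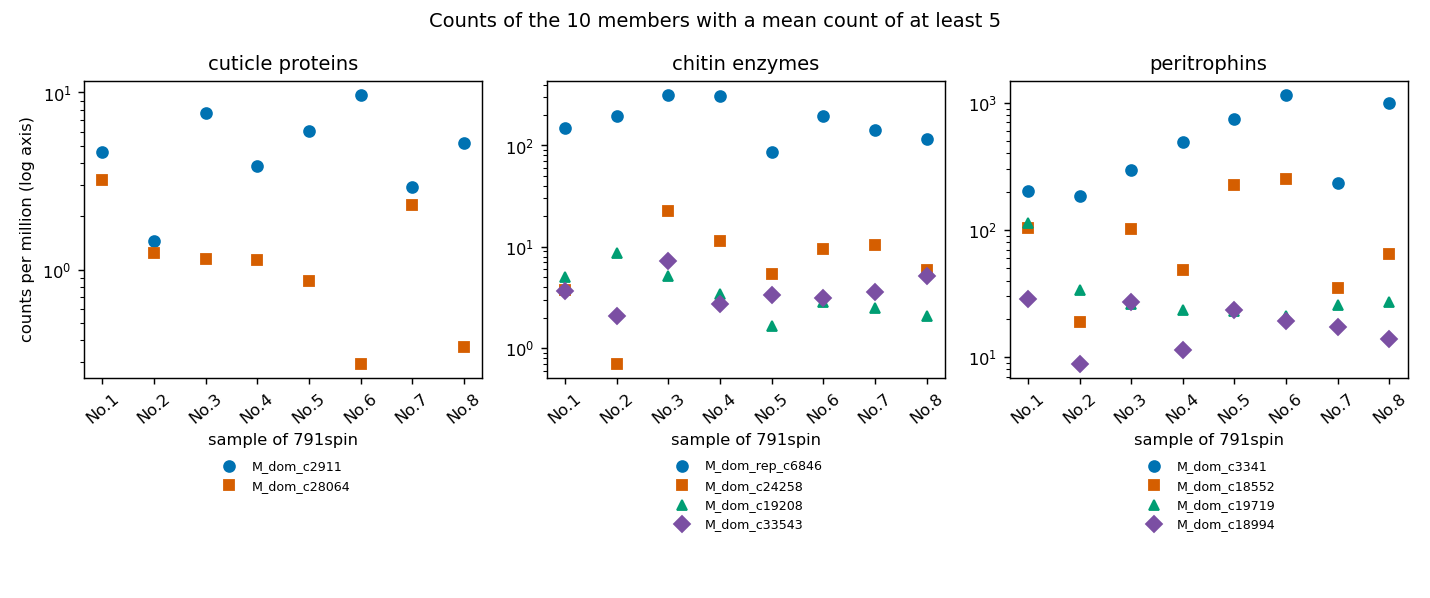
CPM (log axis) in each sample of 791spin for the 10 members that averaged at least 5 counts, in 3 panels for cuticle proteins, chitin enzymes and peritrophins. Each symbol is 1 contig in 1 sample. M_dom_c3341 reached 1161 CPM in No.6, and M_dom_c24258 was at 0.69 CPM in No.2 against 22.8 CPM in No.3.

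The make-up of the peritrophin-15 counts differed between samples. From No.1 to No.8, M_dom_c3341 held 45.0%, 75.1%, 65.5%, 85.7%, 73.2%, 79.8%, 74.8% and 90.3% of them. In No.1 and No.8, picked as the samples with the lowest and highest share, the exact 95% interval for counting error was 43.9% to 46.2% and 89.8% to 90.8%. The share of M_dom_c19719 was 25.2% in No.1, 13.7% in No.2 and 1.45% in No.6, its lowest value. The lowest share of M_dom_c18552 was 5.95% in No.8 and its highest 23.3% in No.1. The contigs thus did not keep a fixed proportion, and the ratio of M_dom_c3341 to M_dom_c19719 was 1.79 in No.1 and 55.2 in No.6. Without No.1 the lowest such ratio was 5.49, in No.2.

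**Figure D2:**
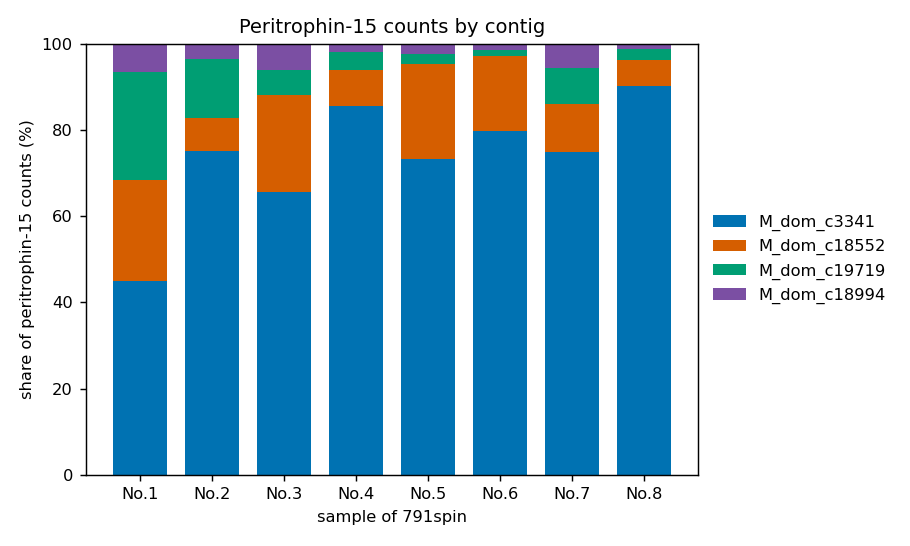
Share of the peritrophin-15 counts (percent) on each of the 4 contigs in each sample of 791spin, as stacked bars that add up to the peritrophin-15 counts of the sample. M_dom_c3341 held the smallest share in No.1 with 45.0% and the largest in No.8 with 90.3%.

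The remaining peritrophin, M_dom_rep_c19667 (879 bp), was matched to Peritrophin-1 of the ant *Camponotus floridanus*. It had 11 counts in all, found in 5 samples, with at most 0.345 CPM in No.2. At this depth no difference between samples could be shown for it.

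Values of other gene sets in the same samples are given beside the peritrophins. These sets were found by words anywhere in the annotation and for any species, so longer names such as chymotrypsin or tropomyosin would also enter. The 31 contigs with trypsin in the annotation, a name of midgut enzymes, summed to 3237, 3036, 6219, 5112, 5592, 6365, 5150 and 3870 CPM from No.1 to No.8, and 30 had counts. Their span was 2.1-fold, against 5.87-fold for the peritrophins. The 24 contigs found by hexamerin, arylphorin or larval serum protein, names of storage proteins known best from larvae, all had counts. They summed to 574, 2219, 2988 and 1379 CPM in the samples No.4, No.5, No.6 and No.8, and between 19.3 and 62.6 CPM in the other samples. The 4 samples with the most hexamerin counts were the 4 with the most peritrophin counts, with No.6 highest in both. Yolk protein and vitellogenin contigs, of which 29 of 31 had counts, summed to between 1827 and 3935 CPM in No.4, No.6 and No.8 but 126 CPM in No.5, where peritrophins were also high. Contigs with flightin, troponin or myosin in the annotation, taken as muscle proteins, summed to 3500, 1409, 3884, 4089, 11776, 7869, 4528 and 5480 CPM from No.1 to No.8, and 68 of 69 had counts. Their 3 highest samples, No.5, No.6 and No.8, and their lowest, No.2, were those of the peritrophin sum. The high samples of that sum, here and beside the hexamerins, are those of M_dom_c3341, which holds most of it. The other peritrophin-15 contigs did not all share them. M_dom_c18552 had more in No.1 (104 CPM) than in No.8 (65.3 CPM) or No.4 (48.2 CPM), and M_dom_c19719 and M_dom_c18994 were highest in No.1. The 10 opsin contigs, photoreceptors of the eye, all had counts and summed to 1344, 618, 1949, 1009, 467, 353, 1389 and 458 CPM, with their 3 lowest values in No.5, No.6 and No.8. The part of midgut, stage, sex, muscle or eye RNA in the peritrophin values was not tested. In samples of whole flies, fewer cells of a type and less RNA per cell cannot be told apart.

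**Figure D3:**
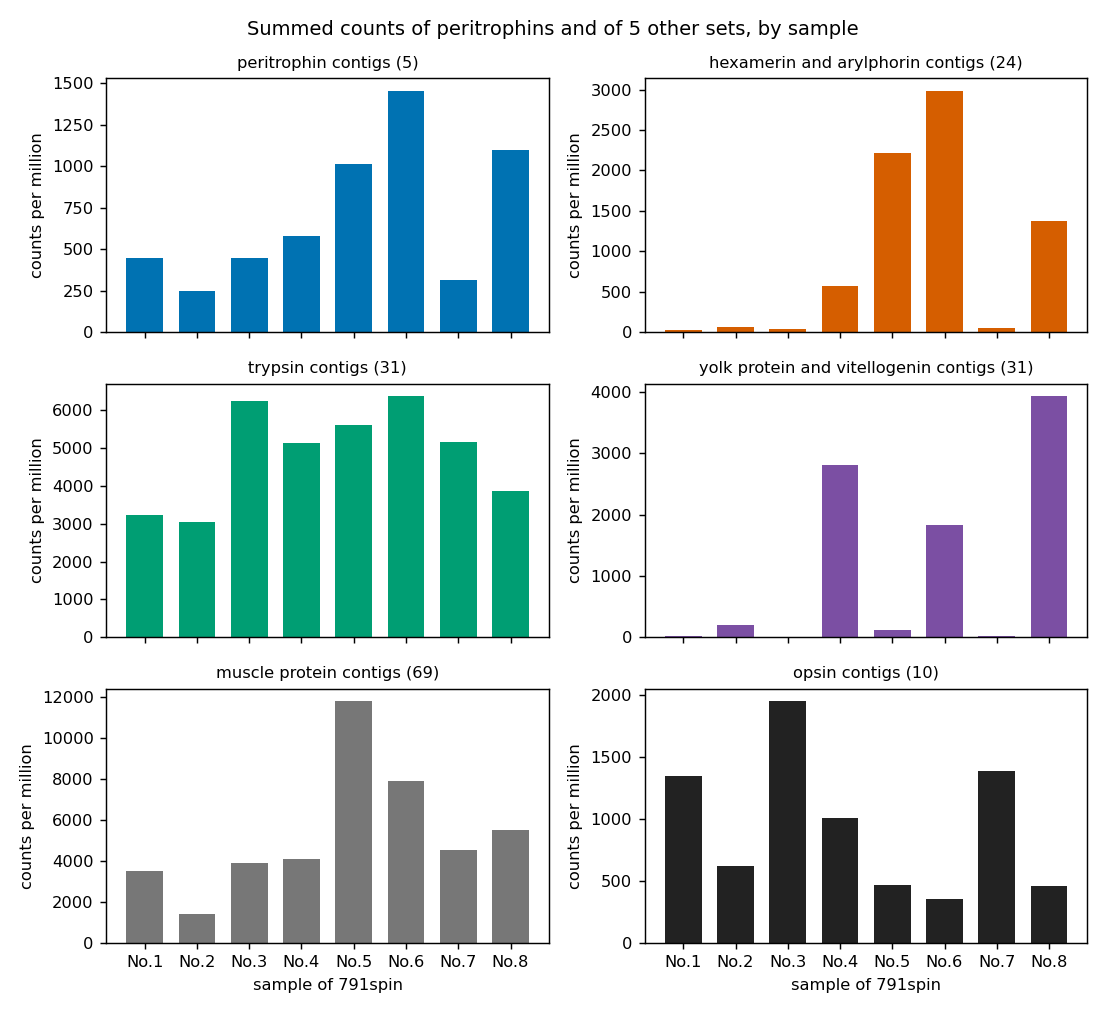
Summed CPM in each sample of 791spin for sets of contigs, each on its own axis starting at 0. The sets are the 5 peritrophin contigs, 24 contigs found by hexamerin, arylphorin or larval serum protein, and 31 trypsin contigs. The others are 31 yolk protein and vitellogenin contigs, 69 muscle protein contigs and 10 opsin contigs. No.6 was highest for peritrophins (1455 CPM), for hexamerin and arylphorin (2988 CPM) and for trypsin (6365 CPM), whereas No.8 was highest for yolk protein and vitellogenin (3935 CPM), No.5 for muscle proteins (11776 CPM) and No.3 for opsins (1949 CPM).

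Chitinases hydrolyse chitin, and 4 member contigs were annotated as chitinase. The contig M_dom_rep_c6846 (1502 bp), matched to a chitinase of *Glossina morsitans morsitans*, carried most of the chitin enzyme counts. It had 149, 194, 319, 312, 86.4, 198, 143 and 116 CPM from No.1 to No.8, with a mean of 190 ± 85.7 CPM (SD, n = 8). No.3 and No.4 were high and No.5 was low, whereas the peritrophin sum was high in No.5. The ratio of No.3 to No.5 was 3.69 (95% exact interval 3.42 to 3.97). This interval does not cover the choice of scaling. The TMM factors of edgeR, an alternative to scaling by the sample total, were highest in No.3 (1.21) and lowest in No.5 (0.827). With them the ratio would be smaller. Per length it had 126 ± 57.1 RPKM, and ranked 1135.

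M_dom_c24258 (1263 bp) was likewise annotated as a *Glossina* chitinase. It had 3.72, 0.69, 22.8, 11.4, 5.38, 9.55, 10.5 and 5.83 CPM from No.1 to No.8. Between its highest and lowest sample there was a ratio of 33.0 (95% exact interval 17.6 to 69.8), the largest of any member, which rests on 10 counts in No.2. The ratio was 6.13 without No.2 and 16.5 without No.3. The proportion of the 2 contigs also varied, since M_dom_rep_c6846 had 13.6 times the CPM of M_dom_c24258 in No.7 and 280 times in No.2. In the 7 samples other than No.2 the CPM of M_dom_rep_c6846 was 13.6 to 40.1 times that of M_dom_c24258.

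The chitinase contig M_dom_c19208 (840 bp), matched to *Bactrocera dorsalis*, had 5.03, 8.63, 5.17, 3.40, 1.63, 2.82, 2.50 and 2.10 CPM from No.1 to No.8. Its highest value lay in No.2, where the other tested members except M_dom_rep_c6846, M_dom_c19719 and M_dom_c28064 had their lowest. Its span of 5.28 was 3.17 without No.2. M_dom_c25418 (571 bp), with the same annotation, had 3 counts, all in No.2.

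Chitin deacetylases remove acetyl groups from chitin and act in the ordering of cuticle. M_dom_c33543 (247 bp), matched to chitin deacetylase 1 of the butterfly *Danaus plexippus*, had 3.66, 2.07, 7.28, 2.74, 3.37, 3.12, 3.62 and 5.19 CPM from No.1 to No.8. It had the lowest dispersion of the tested members, and No.3 and No.8 were its high samples. M_dom_c32083 (676 bp), matched to chitin deacetylase-like 5 of *Drosophila melanogaster*, had 7 counts in all, in 3 samples, with at most 0.292 CPM.

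Of the cuticle proteins, M_dom_c2911 (1024 bp) had the most counts. It was matched to the endocuticle structural glycoprotein SgAbd-8 of the body louse *Pediculus humanus corporis*, a name given to a protein of the inner, chitin-rich cuticle. Its values were 4.59, 1.45, 7.67, 3.87, 6.06, 9.74, 2.93 and 5.19 CPM from No.1 to No.8. As for the peritrophin sum, No.6 was highest and No.2 lowest, with a ratio of 6.72 (95% exact interval 4.17 to 11.3) that was 3.33 without No.2.

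M_dom_c28064 (521 bp) was matched to the cuticular protein 47Ef of *D. melanogaster*, a structural cuticle protein. It had 3.23, 1.24, 1.15, 1.13, 0.865, 0.292, 2.32 and 0.365 CPM from No.1 to No.8. It was lowest in No.6, where M_dom_c2911 was highest. The ratio of No.1 to No.6 was 11.04, but with 3 counts in No.6 its exact interval ran from 3.58 to 55.3.

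The other cuticle protein contigs were hardly counted. M_dom_c31514 (529 bp), matched to adult cuticle protein 1 of *D. melanogaster* and the only cuticle member whose annotation names a stage, had 5 counts, all in No.8 (0.456 CPM). M_dom_rep_c25729 (339 bp), matched to an endocuticle protein of the blowfly *Lucilia sericata*, had no counts in any sample, and the limit of 3 counts used here for a count of 0 is 0.292 CPM in the shallowest.

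A chi-square test of the counts over the 8 samples asked whether a contig varied by more than counting error, with p-values adjusted by the Benjamini-Hochberg method over all 23597 contigs that averaged at least 5 counts. All 10 tested members were called at 0.05, and the largest adjusted p among them was 1.8e-09, for M_dom_c33543. Since 95.1% of all tested contigs were called, this count says nothing particular about the members. The size of the spread was therefore described by the fold span from the lowest to the highest sample, with samples under 3 counts set to 3 counts. A fold span of at least 10 was found for 3 of the 10 members, M_dom_c18552, M_dom_c24258 and M_dom_c28064, and for 20.2% of all tested contigs. Without No.2 only M_dom_c28064 remained above 10 (10.7% of all tested contigs), since M_dom_c18552 then had a span of 7.2. M_dom_c28064 had a span of 7.95 without No.1 and of 8.85 without No.6, whereas the other 2 remained above 10, as did 16.7% and 19.4% of all tested contigs. The median span was 5.79 for the members and 5.02 for all tested contigs. The median dispersion estimated by edgeR, the squared coefficient of variation between samples beyond counting error, was 0.332 for the 10 members and 0.303 for all tested contigs. By class it was 0.394 for the 2 cuticle proteins, 0.259 for the 4 chitin enzymes and 0.414 for the 4 peritrophins, and the ranges of the classes overlapped. Among contigs that averaged at least 50 counts, the median dispersion was 0.356 for 7 members and 0.240 for all such contigs.

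**Figure D4:**
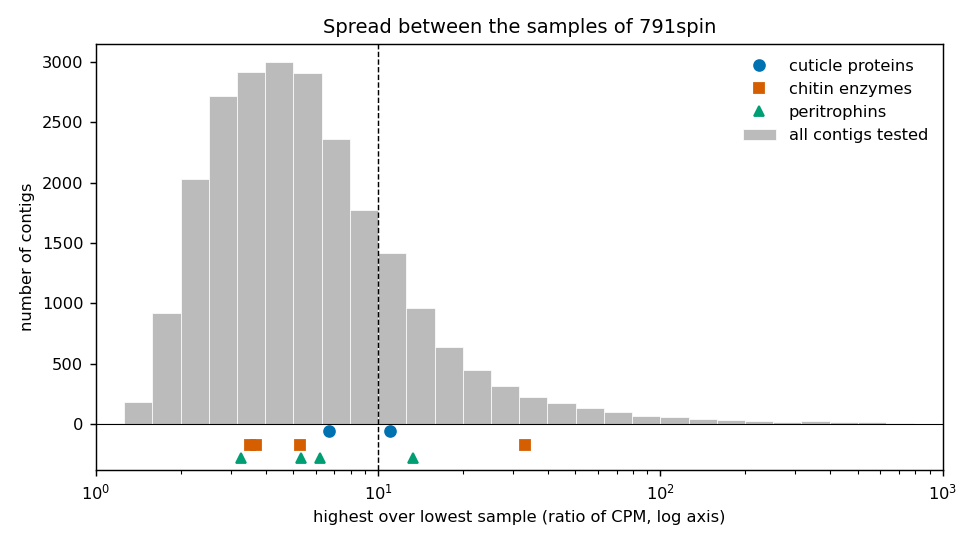
Number of contigs (grey bars) by the fold span from the lowest to the highest sample in CPM (log axis) over all 23597 contigs tested, with the 10 members as symbols by class under the bars. The dashed line marks a ratio of 10, past which lie 3 members and 20.2% of all contigs, and 23 contigs with higher ratios lie beyond the end of the axis.

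Many contigs separated the even-numbered from the odd-numbered samples, or No.1 and No.2 from the rest, although no label names either split, and these patterns are described with no test. No member was higher in every even-numbered than in every odd-numbered sample, against 8.05% of all tested contigs, and none was lower in this way, against 5.8%. M_dom_c19719 was higher in No.1 and No.2 than in any other sample, a pattern of 6.05% of all tested contigs. M_dom_c3341 and M_dom_c24258 were lower there, as were 8.02% of all tested contigs. Counts of 1 and 2 among 10 members are not read as a pattern of the members. The lowest sample was No.2 for 6 of the 10 members and for 24.5% of all tested contigs. The highest sample was No.1, No.3 or No.6 for 3 members each and No.2 for 1, whereas over all tested contigs No.1 was highest for 16.4%, No.3 for 19.8%, No.6 for 5.16% and No.2 for 29.0%. Contigs that share an annotation count separately here, although they may not be separate genes. Among these, M_dom_c3341, M_dom_c18552 and M_dom_c18994 were lowest in No.2, and M_dom_c3341 and M_dom_c18552 were highest in No.6.

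Other steps of chitin and cuticle formation were looked up in the same annotation. For the turnover of chitin and the synthesis of its precursors, 3 insect contigs were found and 2 were tested. M_dom_c987, annotated as beta-hexosaminidase, an enzyme that removes terminal sugars such as those of chitin fragments, had 34.2 ± 20.0 CPM (SD, n = 8), and was lowest in No.2 (6.49 CPM) and highest in No.6 (56.2 CPM). M_dom_rep_c19702, annotated as glutamine:fructose-6-phosphate aminotransferase, the first enzyme of the precursor pathway, had 0.452 ± 0.323 CPM. The adjusted p of the chi-square test was 0.0141 for it and 9.31e-228 for M_dom_c987, so both varied by more than counting error, but neither had a ratio of 10 or more. Among 6 contigs found by words used for tanning, the hardening and darkening of cuticle, M_dom_c362 (yellow-f) had 92.4 ± 41.8 CPM and M_dom_c4179, a prophenoloxidase activating factor of *M. domestica*, 79.1 ± 47.7 CPM. The name of M_dom_c4179 is that of an activating factor and not of a phenoloxidase itself. The search words dopa decarboxylase, tyrosine hydroxylase, laccase, ebony, aspartate 1-decarboxylase and arylalkylamine found no insect contig. A further pair of these 6, M_dom_c4844 and M_dom_c18582, is annotated as enhancer of yellow, which in *Drosophila* are regulators of transcription and not tanning enzymes. Of the 6 contigs 5 were tested, and M_dom_c362, M_dom_c4179 and both enhancer of yellow contigs varied by more than counting error, whereas M_dom_rep_c12990 (yellow-b) was not called (adjusted p of the chi-square test 0.192). None had a ratio of 10 or more. Over all tested contigs these shares were 95.1% and 20.2%.

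A further 15 contigs carried one of the words without an insect in brackets and were not members. Of these, 4 were annotated as the chitinase-like proteins Idgf4 and Idgf5, for which the entry code is that of *Glossina* but no species is written out. These imaginal disc growth factors resemble chitinases and in *Drosophila* lack chitinase activity. Together they had 208, 208, 405, 322, 181, 236, 163 and 144 CPM from No.1 to No.8. Like the chitinase M_dom_rep_c6846, their sum was highest in No.3 and No.4, and so were M_dom_rep_c5721 and M_dom_rep_c17984 alone. M_dom_rep_c17984 had only 60 counts in all, and its 0.944 CPM in No.4 lay close to 0.779 CPM in No.6. M_dom_c34236 had 183 CPM in No.3 but more in No.6 (137 CPM) than in No.4 (116 CPM). M_dom_rep_c13256 was highest in No.1 (13.8 CPM). The other 11 were matched to fungi, bacteria or a protozoan, among them 4 contigs matched to a chitinase of *Trichomonas vaginalis* with 50.6 ± 9.23 CPM (SD, n = 8) and M_dom_rep_c16663 with 2.99 ± 1.00 CPM, the only contig with a chitin synthase in its annotation, which was matched to the fungus *Ustilago hordei*. Whether such contigs come from the fly or from another organism was not tested.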

How the data were processed

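The authors deposited a single table with 8 samples of 791spin, in which whole-number counts of reads per contig stand beside scaled counts, the contig length and an annotation. The contigs had been assembled by the authors from pyrosequencing reads with Newbler and MIRA. Neither the counting program nor the reads that entered it are named in the labels or the methods. The counts of each sample exceed the reads of the pyrosequencing run that the authors report. The 8 scaled columns were not used. Each count column carries the title of its sample.

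Members were found by searching the annotation for cuticle, cuticular, chitin, peritrophin, peritrophic or resilin in any case, with an insect in the last brackets. Members, classes, lists and splits were chosen with earlier results of these data known. In each class the 6 contigs with the highest mean CPM were to be named, together with chitin synthase, deacetylase and resilin contigs and the members with the largest ratios, which came to all 15.

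CPM and RPKM were computed on the total of all contigs. Alternatives were other scalings, count minimums, a minimum contig length, members of any species, leaving out the most counted contig of a class and leaving out each sample. The chi-square test measures the spread between these samples against counting error. Tagwise dispersions came from edgeR 4.0.16 (TMM, intercept only) in R 4.3.3, with DESeq2 1.42.0 as the alternative for both scaling and dispersion. All else was computed in Python 3.11.15 with scipy 1.17.1, numpy 2.4.6 and pandas 2.3.3, and drawn with matplotlib 3.10.9. The chi-square test and the dispersions were tested on simulated data. The search for the aminotransferase of the chitin pathway was widened to further spellings after the annotation had been seen. Contig sequences were not analysed here.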

Additional observations from a re-analysis of the deposited data

Results flagged for a closer look

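For 13 results with a value in each sample, the gap of the highest or lowest sample to its nearest neighbour was set against the whole range and compared with Dixon's 95% critical value. For independent results with normally distributed values, chance alone passes it in about 1 of 20. Whether the CPM are so distributed was not tested, and class sums stand beside contigs that they contain. The rate for this screen is therefore not known. The peritrophin-15 contig M_dom_c19719 in No.1 was above it, with 112 CPM against 33.8 CPM in No.2, the next highest sample, and a gap of 0.86 of the range. These values rest on 1811 counts in No.1 and 490 in No.2.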

How the results depend on the processing

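The sums of the classes rest on single contigs: without the most counted contig of a class, cuticle proteins had 1.38 CPM, chitin enzymes 16.6 CPM and peritrophins 162 CPM, because the left-out contig holds most of the sum. With contigs of any species or none, chitin enzymes had 495 CPM, since the Idgf and non-insect contigs then entered. Other scalings left the class sums within their SD, but with TMM factors or DESeq2 size factors M_dom_c19208 joined M_dom_c19719 as higher in No.1 and No.2 than elsewhere, which made 2 members, against 6.9% and 7.33% of all tested contigs. The printed ratios between samples and their intervals use the sample totals only. The number of members with a ratio of at least 10 lay between 1 and 3 with a sample left out, the lowest without No.2. Over all tested contigs this share lay between 10.7% (without No.2) and 19.4% (without No.6). All 10 members still varied beyond counting error with each sample left out and with either scaling, but so did 90.3% (without No.2) to 94.3% (either scaling) of all tested contigs. The other class sums, counts and dispersions stayed within their limits under the remaining alternatives. With TMM factors or DESeq2 size factors, 0 single contigs moved by more than the SD between samples. Leaving out a sample cannot move a mean by more than this SD, whatever the values. The means of classes and single contigs with a sample left out therefore say nothing about how stable they are by this limit. No paired analysis was possible because all samples share 1 labelled condition. Depth limits the 5 members with a mean under 5 counts.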
